A study of Mus musculus with 52 samples.

Results

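The levels of 5 genes in mouse CD8+ T cells are described across all groups of the study: Klhl30, Myl10, Adgrg5, Adgrl1 and Sult2b1, 5 of the 14626 genes in the deposited counts table. They were chosen by these same levels as candidate marks of activation with beads, on a comparison of bead-activated cells with cells activated by dendritic cells (DCs). Levels across activators are therefore given as description with no test, and tests are kept for coating and for time. Those were not the contrast named for the choice, but they may share values with it. Uncoated, Sult2b1 was 1.37-fold above DC cells at day 3, and 27.5-fold at day 7 of beads against day 4 of DCs. A choice that drew on day 7 levels would favour a rise with time, so these tests are not independent of it. The data fitted the name of bead marks fully for 1 of the 5. Myl10 was higher in each of the 17 bead samples than in each DC and day 0 sample. Adgrg5 was already high before activation, though in day 0 samples numbered as the bead samples it was below all of those. Klhl30 was sparse in uncoated bead cells at day 3, and Sult2b1 was high at day 7 of bead culture and mostly without the coating. Adgrl1 went against it: its level was lowest, not highest, in uncoated bead cells at day 7.

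RNA was measured by bulk MARS-seq, a method that reads the 3′ end of transcripts, in CD8+ T cells from spleens of OT-I mice, whose transgenic T cell receptor recognises an ovalbumin peptide. Cells were taken on day 0 without activation (9 samples), or after culture with beads carrying antibodies to CD3 and CD28 together with IL-2, or with CD11c-selected splenic DCs of C57BL/6 mice loaded with the peptide. Wells were either uncoated or coated beforehand with the chemokine CCL21 and the adhesion molecule ICAM1. Bead cultures gave 3 uncoated and 5 coated samples on day 3, and 5 uncoated and 4 coated samples on day 7. DC cultures gave 4 uncoated and 5 coated samples on day 3 (16 libraries, summed per sample), and 5 of each on day 4. Bead and DC cultures differed in the kind of receptor ligation, in IL-2 and in the presence of DCs, which cannot be told apart here. Day 7 was sampled only with beads and day 4 only with DCs. After day 3, activator and time in culture thus cannot be told apart either. Samples are named by the M number of their titles, which the labels do not explain. A p-value therefore reflects only how far these samples differ from each other, which may be technical. All bead and day 3 DC samples are M1 to M5, and all day 4 DC samples are M6 to M10. What sets day 4 DC samples apart thus cannot be told from that set of numbers. Levels are in CPM, counts scaled to a common library size, here with TMM factors over all samples.

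Adgrg5 and Adgrl1 are adhesion G protein-coupled receptors, a family with long extracellular parts that is cleaved close to the membrane. Adgrl1 is latrophilin 1, which binds teneurins, FLRT proteins and neurexins on neighbouring cells. Sult2b1 is a sulfotransferase that adds sulfate to cholesterol and oxysterols, and in mouse T cells this lowers the supply of oxysterols that activate the liver X receptors (LXRs), nuclear receptors that switch on genes of cholesterol export. Myl10 is a myosin regulatory light chain first described in precursor lymphocytes. Klhl30 is a Kelch-like protein, and members of that family commonly serve as substrate adaptors of cullin 3 ubiquitin ligases.

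In GRCm38 with the GENCODE vM21 annotation, all are protein-coding genes. Klhl30 lies at chr1:91351016-91362416 and Myl10 at chr5:136693146-136701094, both on the plus strand. Adgrl1 at chr8:83900105-83941954 and Adgrg5 at chr8:94923694-94943280 are on the plus strand of the same chromosome. Sult2b1 lies at chr7:45729983-45784669 on the minus strand, where an antisense gene, Gm31597, and the kinase gene Lmtk3 overlap it on the plus strand. How strand was counted is not given in the sources used here, so reads of Sult2b1 and of these genes cannot be told apart with certainty. Gm31597 held 795 counts in the 52 libraries together and its group means ran from 5.22 to 11.8 CPM. Lmtk3 held 714 counts, and its level of 22.3 ± 4.36 CPM (SD, n = 5) in uncoated bead cells at day 7 compares with 250 ± 91.97 CPM for Sult2b1 in the same samples. Among bead groups Lmtk3 was also highest there, with 1.399 ± 0.364 CPM uncoated and 4.90 ± 2.36 CPM coated at day 3 (SD, n = 3 and 5) and 7.38 ± 2.41 CPM coated at day 7 (n = 4). Whether reads were shared between both genes was not tested.

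The 250 bases before annotated start sites are shown for 3 genes: Sult2b1 and Myl10, which both rose with time in bead culture, and Adgrg5, for which no such rise was called. They come from RefSeq (GRCm38.p6), which gave windows for 4 of the 5 genes, and read 5′ to 3′ on the gene's strand. Capitals mark matches, on either strand, to AP-1 (TGANTCA), to the NFAT core (GGAAA) or to STAT (TTCNNNGAA), binding motifs of factor families active downstream of the T cell receptor, CD28 and IL-2. The first Sult2b1 window is chr7:45742479-45742728 (minus strand), the second chr7:45759613-45759862 (minus strand), the Myl10 window chr5:136692896-136693145 (plus strand) and the Adgrg5 window chr8:94923444-94923693 (plus strand). First and second follow ascending position, so on the minus strand the first Sult2b1 start lies downstream of the second.
Sult2b1, first start: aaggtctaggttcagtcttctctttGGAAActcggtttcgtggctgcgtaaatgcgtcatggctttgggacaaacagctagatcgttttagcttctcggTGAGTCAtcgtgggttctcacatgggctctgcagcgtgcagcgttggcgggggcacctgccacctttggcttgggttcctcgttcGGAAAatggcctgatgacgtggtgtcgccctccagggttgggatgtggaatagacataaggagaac
Sult2b1, second start: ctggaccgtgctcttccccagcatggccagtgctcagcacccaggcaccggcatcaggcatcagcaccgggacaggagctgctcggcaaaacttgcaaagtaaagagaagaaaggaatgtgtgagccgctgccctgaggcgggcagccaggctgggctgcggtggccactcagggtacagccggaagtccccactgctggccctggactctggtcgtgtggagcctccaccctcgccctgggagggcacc
Myl10: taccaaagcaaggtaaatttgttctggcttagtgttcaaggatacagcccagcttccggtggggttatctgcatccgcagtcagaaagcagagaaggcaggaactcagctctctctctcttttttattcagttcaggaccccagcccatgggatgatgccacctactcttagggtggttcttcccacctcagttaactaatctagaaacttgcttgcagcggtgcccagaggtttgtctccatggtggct
Adgrg5: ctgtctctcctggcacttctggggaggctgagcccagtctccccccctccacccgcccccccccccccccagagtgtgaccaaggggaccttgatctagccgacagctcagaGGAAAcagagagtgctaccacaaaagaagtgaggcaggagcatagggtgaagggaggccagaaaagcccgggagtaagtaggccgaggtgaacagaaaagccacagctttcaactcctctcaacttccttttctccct
The first Sult2b1 window, that of the more downstream start, held an AP-1 match whose first base lies at -151 from the start site. It also held NFAT core matches at -225 and -66. The second Sult2b1 window and the Myl10 window printed here held no match, of the 2 further Myl10 windows 1 held NFAT core matches at -222, -213 and -193, and the Adgrg5 window held an NFAT core match at -138. Of all 32851 windows of this length, 6.75% hold the AP-1 letters, 55.6% the NFAT core letters and 7.02% the STAT letters. No STAT match lay in any of the 7 windows of the 4 genes. A match is a run of letters and not a measured binding site, and the 4 windows do not include the outermost annotated start of Sult2b1.

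Totals ran from 382924 to 4641802 counts per library. Summed levels of 8 CD8+ T cell markers were between 3845 and 7751 CPM in all samples, and none of the 8 was at 0 in any group. On day 0 they were 4478 to 5501 CPM in M1 to M5 and 6832 to 7751 CPM in M6, M7, M8 and M10. Day 0 samples also held 6 erythroid markers at 25603 to 135596 CPM and 6 MHC class II markers at 10822 to 20349 CPM in sum, against at most 1442 CPM for either list in any cultured sample. DC markers summed to 207 to 435 CPM in DC cultures at day 3 and to at most 208 CPM in any other sample. Of the uncoated bead samples at day 7, M3 and M4 stood apart, with erythroid sums of 485 and 818 CPM against 7.15 to 11.97 CPM in the other 3, and MHC class II sums of 202 and 448 CPM against 38.3 to 50.8 CPM. For the 5 genes, results that rest on this group are given with and without both samples. Erythroid sums were also raised in DC cultures, at 1174 and 602 CPM in uncoated M8 and M9 and 476 CPM in coated M8 of day 4, and 478 CPM in uncoated M3 of day 3. B cell markers summed to 1848 to 2571 CPM in day 4 DC samples, against at most 1261 CPM in other cultured samples. From the DC fits such samples were left out only singly. In bulk samples, fewer cells of a type and less RNA per cell cannot be told apart.

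Myl10 separated bead-activated cells from all others. It stood at 35.6, 22.8 and 22.5 CPM in uncoated bead samples M1, M2 and M4 at day 3, and at 38.9, 37.1, 31.0, 27.2 and 29.4 CPM in coated samples M1 to M5. At day 7 it reached 209, 94.5, 185, 305 and 231 CPM in uncoated samples M1 to M5 and 135, 122, 214 and 227 CPM in coated samples M1, M2, M3 and M5. In DC samples it never passed 2.01 CPM, and on day 0 it ran from 0.852 to 5.27 CPM with a median of 3.26. Every bead sample was above every DC and day 0 sample, as for 0.465% of all genes, and every day 7 bead sample was above all others, as for 0.362%. In the order of group means, the 4 DC groups came lowest and overlapped each other, day 0 overlapped the coated DC group of day 4, and the uncoated and coated bead groups of each day overlapped.

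Klhl30 was close to absent outside bead cultures. Its level was 0 in 7 of the 9 day 0 samples and at most 2.58 CPM in DC samples. At day 3 of bead culture it was at 2.92, 0 and 0 CPM in uncoated samples M1, M2 and M4, where the value of M1 rests on 5 counts. In coated samples M1 to M5 of that day it was at 9.34, 0.773, 6.52, 10.6 and 19.3 CPM. At day 7 it stood at 77.8, 49.1, 80.9, 86.1 and 109 CPM in uncoated samples M1 to M5. Coated samples M1, M2, M3 and M5 had 35.4, 24.9, 53.1 and 49.7 CPM. Every day 7 sample lay above every other sample, but the low day 3 samples lay within the range of DC and day 0 cells.

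Sult2b1 was high in 1 group above all. Uncoated bead samples M1 to M5 at day 7 held 159, 154, 261, 310 and 363 CPM. Coated samples M1, M2, M3 and M5 of that day held 14.1, 34.9, 51.95 and 36.3 CPM. Every uncoated day 7 sample was above every other sample in the series, as for 0.28% of all genes. At day 3, bead levels of 6.42, 11.4 and 2.05 CPM without coating and 5.19, 6.18, 7.60, 8.501 and 17.0 CPM with it lay among those of day 0 (2.17 to 15.4 CPM, median 9.22) and of DC cultures (2.82 to 13.2 CPM). M3 and M4, the samples with erythroid and MHC class II transcripts, lay within the range of the other uncoated samples for this gene.

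Adgrg5 was high before activation and in bead cultures, and low in DC cultures. Day 0 samples ran from 39.2 to 82.0 CPM with a median of 57.6. Bead samples ran from 59.9 to 115 CPM over both days and both coatings, and DC samples from 0.775 to 14.2 CPM. Every bead sample was above every DC sample, as for 0.998% of all genes, while day 0 and day 3 bead samples overlapped. That overlap came from day 0 samples M6, M7, M8 and M10, at 77.9, 62.9, 82.0 and 67.8 CPM, numbers with no bead culture. Day 0 samples M1 to M5, the numbers of all bead samples, had 39.2 to 57.6 CPM, below every bead sample. By day 3 the DC samples without coating had 5.54, 7.53, 4.86 and 8.995 CPM in M1, M3, M4 and M5. Those with coating had 2.93, 4.20, 0.874, 0.775 and 2.70 CPM in M1 to M5, all below the uncoated ones. The day 4 DC groups, at 10.4 ± 3.24 CPM uncoated and 10.9 ± 2.64 CPM coated (SD, n = 5 each), overlapped. The high day 0 level was measured in samples that also held erythroid, B cell and MHC class II transcripts, whose part in it was not tested.

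Adgrl1 ran the other way. It was highest on day 0, at 64.0 to 119 CPM with a median of 99.8, and in DC cultures of day 4, at 92.4 ± 9.54 CPM uncoated and 85.9 ± 5.27 CPM coated (SD, n = 5 each). Bead cultures of day 3 had 58.3, 69.7 and 46.0 CPM uncoated and 41.5, 51.0, 66.3, 42.5 and 59.8 CPM coated, overlapping DC cultures of day 3 at 50.8 to 62.0 CPM. At day 7 uncoated bead samples M1 to M5 fell to 32.3, 37.7, 27.8, 37.1 and 21.8 CPM. Coated samples M1, M2, M3 and M5 kept 79.2, 66.6, 45.1 and 61.2 CPM. Every uncoated day 7 sample was below every other sample in the series, as for 0.0273% of all genes.

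**Figure D1:**
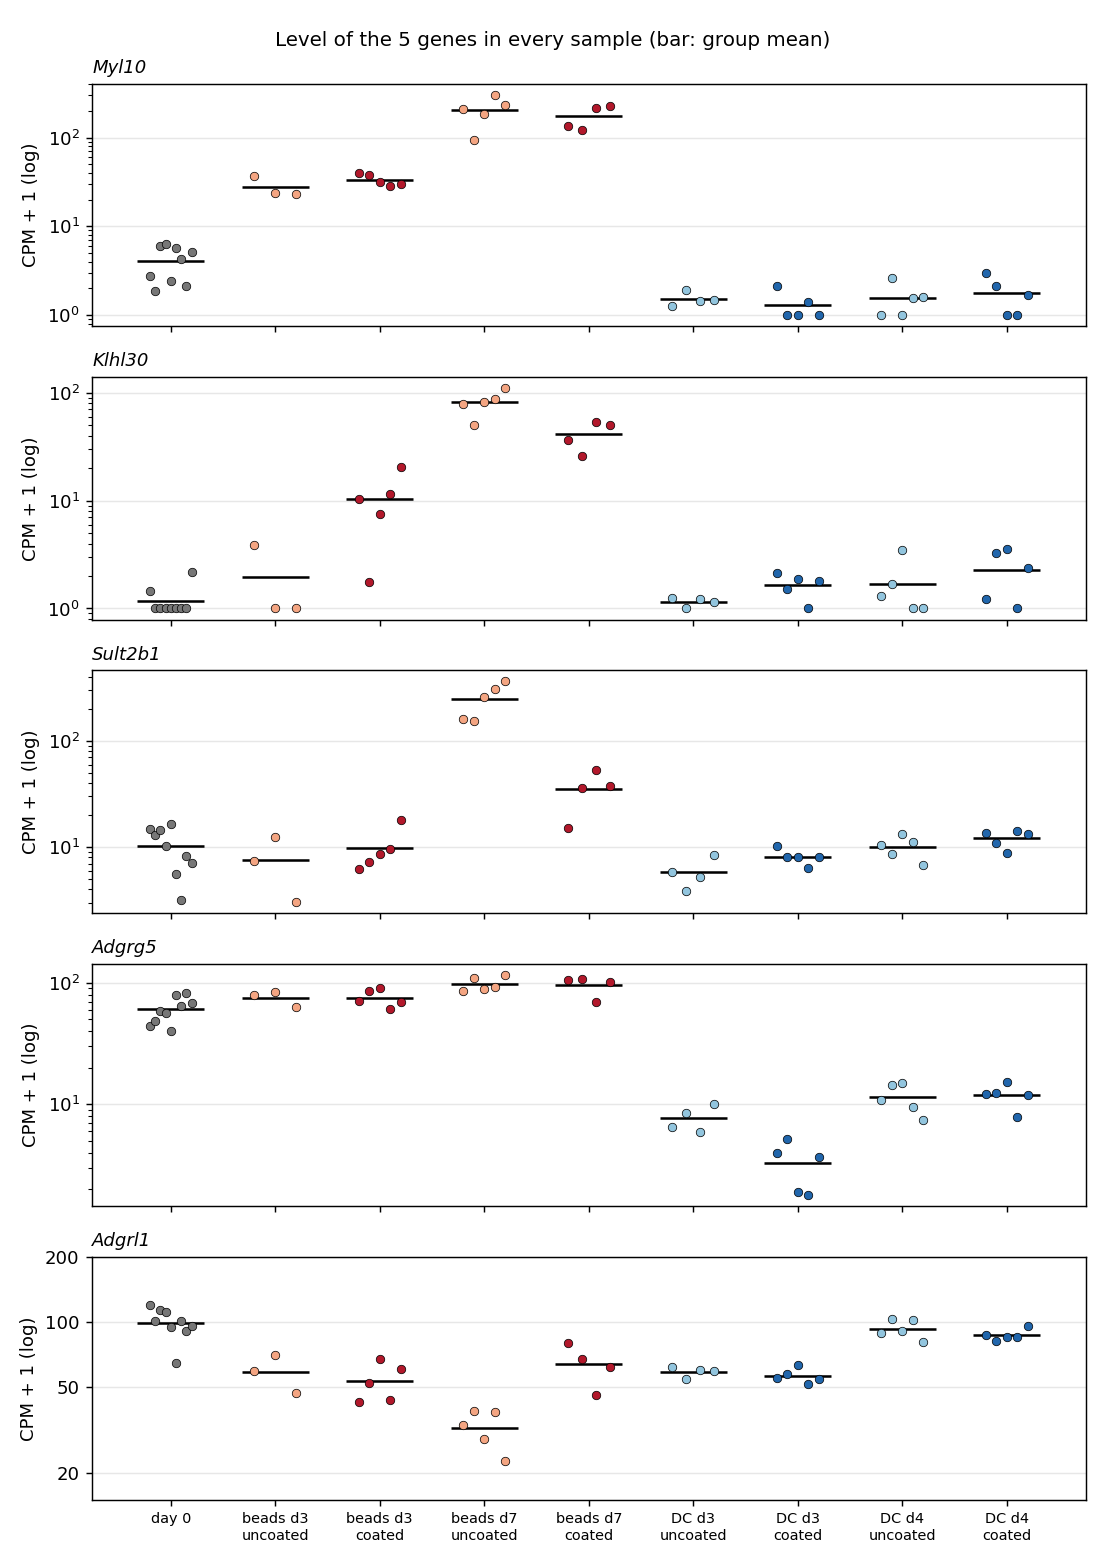
Level of each of the 5 genes in every sample, as CPM + 1 on a logarithmic axis that differs between panels, by group on the horizontal axis (d3, d4, d7: day); points are samples and bars group means. Myl10 was above 22 CPM in all bead samples and at most 2.01 CPM in DC samples, Sult2b1 peaked in uncoated bead cells at day 7, and Adgrl1 was lowest there.

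Time in bead culture was compared first, day 7 against day 3, separately without and with the coating. Of the 5 genes, 3 rose and 1 fell without the coating, where 11.9% of all tested genes rose and 10.8% fell (edgeR quasi-likelihood test, two-sided, Benjamini-Hochberg adjusted p under 0.05). Klhl30 rose by 5.77 ± 0.56 on the log2 scale (SE; adjusted p = 0.000193, edgeR), 54.4-fold by the fit, and Sult2b1 by 5.32 ± 0.54 (adjusted p = 0.00064), 39.9-fold. The Klhl30 fold rests on few counts at day 3: without M1 of that day both remaining uncoated samples held 0 counts, and the fitted value of 10.00 then depends on the prior count. Myl10 rose by 2.90 ± 0.40 (adjusted p = 0.00223, edgeR), 7.45-fold. For these 3 genes the groups did not overlap, as for 30.2% of tested genes, and the calls held in all 16 alternative analyses. Klhl30, with 5, 0 and 0 counts at day 3, and Sult2b1, with 11, 8 and 2, passed the count filter through their day 7 samples. The alternatives reuse the same counts, so for Klhl30 and Sult2b1 neither point is independent support for the rise. Without uncoated M3 and M4 of day 7 the Klhl30, Sult2b1 and Myl10 values were 5.72, 5.17 and 2.67. Adgrl1 fell by 0.89 ± 0.22 on the log2 scale (adjusted p = 0.016, edgeR), and by 0.94 without M3 and M4 (adjusted p = 0.0296). Its call was lost with the M number as a block (-0.70, adjusted p = 0.0596), without day 3 sample M1 (-0.90, adjusted p = 0.0561) and without day 3 sample M2 (-0.74, adjusted p = 0.0788). With that block, used since deviations of same-numbered samples correlated, though weakly (r = 0.121 to 0.282, 3 pairs), 1342 genes were called against 2051. Adgrg5, at 74.6 ± 10.7 and 97.7 ± 13.5 CPM (SD, n = 3 and 5), differed by 0.39 on the log2 scale (95% interval 0.067 to 0.72, adjusted p = 0.11, edgeR), which was not called with or without M3 and M4 (0.46).

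With the coating, 3 of the 5 genes rose from day 3 to day 7 and none fell, while 3.65% of tested genes rose and 2.73% fell. Myl10 rose by 2.42 ± 0.21 on the log2 scale (adjusted p = 2.77e-05, edgeR), 5.34-fold, with no overlap between groups, as for 10.3% of tested genes, and kept its call in all 16 alternatives. Klhl30 rose by 2.04 ± 0.48 (adjusted p = 0.0399, edgeR) and Sult2b1 by 1.91 ± 0.40 (adjusted p = 0.0174), 4.12-fold and 3.77-fold. The Sult2b1 groups overlapped, since coated M1 at day 7 had 14.1 CPM and coated M5 at day 3 had 17.0 CPM. Its call was lost by a small margin without day 3 M4, day 7 M2 or day 7 M5 (1.88, 1.93 and 1.92, adjusted p = 0.0541, 0.052 and 0.0519). That of Klhl30 was lost in 7 of the 9 fits that left out a single sample, M1, M3 or M4 of day 3 or any of day 7, with values of 1.89 to 2.24 on the log2 scale. Adgrg5 and Adgrl1 were not called, with differences of 0.35 (95% interval 0.050 to 0.65) and 0.26 (-0.088 to 0.60) on the log2 scale.

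The coating was compared next, coated minus uncoated bead cells. At day 3 none of the 5 genes was called, where 0.1% of tested genes were. Klhl30 had the largest difference of the 5, 2.68 ± 1.01 on the log2 scale (adjusted p = 0.387, edgeR), with 9.31 ± 6.75 CPM coated and 0.972 ± 1.68 CPM uncoated (SD, n = 5 and 3). Its groups overlapped through the coated sample M2. The other 4 genes had 95% intervals that spanned 0, from -0.25 to 0.61 for Myl10 and from -0.54 to 1.49 for Sult2b1.

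At day 7 the coating was accompanied by a lower Sult2b1 and a higher Adgrl1, 1 gene of the 5 in each direction, while 1.41% of tested genes were lower and 0.368% higher. Sult2b1 had 34.3 ± 15.5 CPM with the coating and 250 ± 91.97 CPM without it (SD, n = 4 and 5), and fell by 2.89 ± 0.42 on the log2 scale (adjusted p = 0.0193, edgeR), a 7.42-fold difference. Adgrl1 had 63.0 ± 14.1 CPM with the coating and 31.3 ± 6.67 CPM without it, and rose by 0.97 ± 0.20 (adjusted p = 0.0367, edgeR), 1.962-fold. For both genes the groups did not overlap, as for 9.59% of tested genes. Without the uncoated samples M3 and M4 the differences were of like size, -2.75 for Sult2b1 and 1.02 for Adgrl1, but neither was called with 3 samples left (adjusted p = 0.137 and 0.109, edgeR). Markers of granulocytes, eosinophils and mast cells summed to at most 3.02 CPM in either day 7 group, and those of monocytes and macrophages to at most 10.4 CPM. Of 5 listed NK cell markers 3 were in the table, their sum ran from 218 to 427 CPM uncoated and from 410.5 to 658 CPM coated (n = 5 and 4), and the 1 tested was called higher (Eomes, 0.90 ± 0.20 on the log2 scale, adjusted p = 0.0479, edgeR). Eomes, which activated CD8+ T cells also express, made up nearly all of that sum. Klrb1c stood at 4.19 ± 1.08 CPM uncoated and 2.18 ± 1.13 CPM coated, and Klrb1b was at 0 in both groups. The part of these markers in the result was not tested.

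The 2 calls at day 7 depended on single samples while the size of the differences did not. For Sult2b1 the call was lost without uncoated M3 (-2.88, adjusted p = 0.0614, edgeR), coated M2 (-2.90, adjusted p = 0.0756) or coated M5 (-2.92, adjusted p = 0.0958). For Adgrl1 it was lost without uncoated M3 (0.93, adjusted p = 0.0868), uncoated M5 (0.84, adjusted p = 0.0819), coated M1 (0.85, adjusted p = 0.143), coated M2 (0.94, adjusted p = 0.108) or coated M5 (0.99, adjusted p = 0.132). In the authors' deposited table, from their own fit, the coated over uncoated log2 fold change was -2.91 for Sult2b1 (adjusted p = 2.67e-13) and 0.98 for Adgrl1 (adjusted p = 5.98e-06).

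Klhl30 lay between called and not called. It had 40.8 ± 13.1 CPM with the coating and 80.7 ± 21.6 CPM without it at day 7 (SD, n = 4 and 5), a difference of -1.02 ± 0.26 on the log2 scale (95% interval -1.53 to -0.52, adjusted p = 0.0648, edgeR). The groups overlapped through uncoated M2 at 49.1 CPM, without which the gene was called (-1.16, adjusted p = 0.0192). Without uncoated M3 and M4 the difference was -0.99 (adjusted p = 0.278, edgeR). Myl10 and Adgrg5 were not called, with 95% intervals of -0.93 to 0.37 and -0.39 to 0.22 on the log2 scale. Without M3 and M4 their differences were -0.070 and -0.16.

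Whether the coating difference itself changed between day 3 and day 7 was tested as a contrast over the 4 bead groups. It did for 3 of the 5 genes, lower at day 7 for 2 and higher for 1, while it was lower for 2.49% and higher for 1.48% of tested genes. The change was -3.40 ± 0.77 on the log2 scale for Sult2b1 (adjusted p = 0.0305, edgeR), -3.71 ± 0.98 for Klhl30 (adjusted p = 0.0467) and 1.16 ± 0.29 for Adgrl1 (adjusted p = 0.0338). These calls were held by 14, 8 and 11 of 24 alternatives. Leaving out any 1 of the 3 uncoated day 3 samples ended all 3 calls, with values of -3.82 to -3.03 for Sult2b1, -8.08 to -3.26 for Klhl30 and 1.00 to 1.29 for Adgrl1. Sult2b1 also lost its call without coated M5 of day 3 (-3.01) or without uncoated M3 (-3.38), uncoated M4 (-3.29), coated M2 (-3.40) or coated M5 (-3.41) of day 7. For Klhl30 the value of -8.08 came from leaving out uncoated M1 of day 3, the only sample of its group with a count, and its call also ended without coated M1, M4 or M5 of day 3, uncoated M3, M4 or M5 of day 7, or any coated sample of day 7, at -3.88 to -3.28. Adgrl1 lost its call without coated M1 or M4 of day 3, or uncoated M3 or M5, or coated M1, M2 or M5, of day 7, at 1.05 to 1.18. Without both uncoated M3 and M4 of day 7 the 3 values were -3.23, -3.66 and 1.23 and none was called (adjusted p = 0.0869, 0.122 and 0.0666, edgeR). Myl10 and Adgrg5 were not called, at -0.46 ± 0.46 and -0.032 ± 0.23 on the log2 scale, and -0.23 and -0.082 without uncoated M3 and M4 of day 7.

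**Figure D2:**
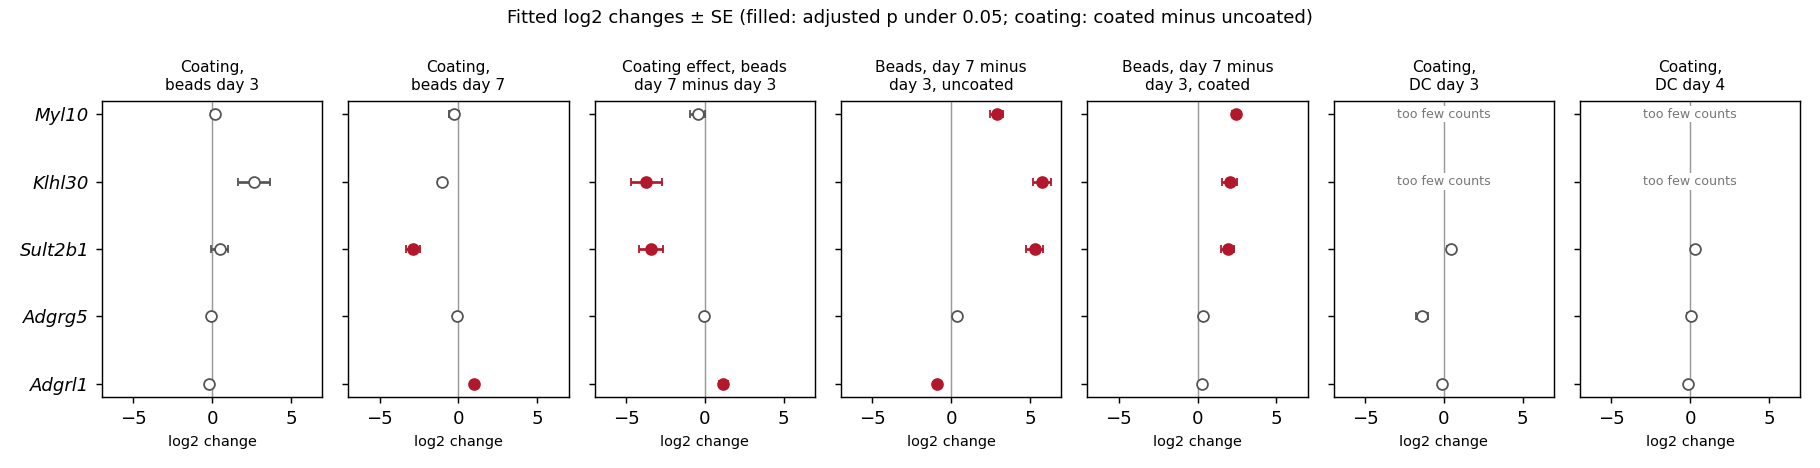
Fitted log2 change with its standard error for each of the 5 genes (rows) in 7 comparisons (panels); filled points have an adjusted p under 0.05 in edgeR's quasi-likelihood test, and genes with too few counts carry no point. Klhl30, Myl10 and Sult2b1 rose from day 3 to day 7 in bead culture with and without coating, and Sult2b1 and Adgrl1 moved in opposite directions with the coating at day 7.

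In DC cultures none of the 3 genes with enough counts was called for coating. Klhl30 and Myl10 were too sparse to test there. Sult2b1 differed by 0.45 ± 0.27 on the log2 scale at day 3 and 0.31 ± 0.24 at day 4, and Adgrl1 by -0.11 ± 0.10 and -0.13 ± 0.11, where 0.39% and 18.4% of tested genes were called on the respective days. The 95% interval of Sult2b1 at day 4 was -0.17 to 0.79, which does not hold the size of the difference in bead cells at day 7. That contrast was not tested as a difference between activators.

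Adgrg5 was the exception at day 3 of DC culture. The coated samples, at 2.29 ± 1.46 CPM (SD, n = 5), all lay below the uncoated ones at 6.73 ± 1.89 CPM (n = 4), as for 4.63% of tested genes in either direction. These levels rest on few counts: 13, 16, 1, 2 and 10 in coated M1 to M5. Uncoated M1, M3, M4 and M5 had 22, 8, 22 and 58. The difference was -1.39 ± 0.37 on the log2 scale and was not called (adjusted p = 0.144, edgeR). With the M number as a block it was called (-1.70, adjusted p = 0.0439, edgeR), with 121 genes called against 40. That block was used since deviations of same-numbered samples correlated, though weakly (r = 0.111 to 0.238, 4 pairs). The authors' deposited table, from their own fit, gives -1.29 with an adjusted p of 0.0227. Whether that fit took single libraries as replicates, rather than sums per sample, was not checked. The 30 or 120 in the titles was not balanced over the day 3 groups. Libraries with 30 made up a larger share of the coated than of the uncoated ones, and M3 had 30 only with the coating and 120 only without it. Adgrg5 had a median of 1.89 CPM over 8 libraries with 30 and of 5.50 CPM over 8 libraries with 120. With the 120 libraries alone the coating difference shrank to -0.74 (adjusted p = 0.597, edgeR). At day 4 the groups overlapped and the difference was 0.028 ± 0.26 on the log2 scale, not called with the block either, which raised the number of called genes from 1683 to 2538.

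The genes whose levels were most like each of the 5 were found by Pearson r of log2(CPM + 1) over the 45 samples, among 9920 genes that reached a group mean of 5 CPM. Samples of one group share their treatment, so r mainly follows group means, and no p is given. Klhl30 was nearest to Cdkn2a (r = 0.92), a cell cycle inhibitor, and to the serpins Serpina3g (0.92) and Serpina3f (0.91). Myl10 was nearest to the chemokine receptor Ccr2 (0.95), Ubtd1 (0.95) and Fgl2 (0.95). Adgrg5 was nearest to Zfp652 (0.95), Sipa1l1 (0.93) and Eya2 (0.93). Sult2b1 was nearest to Ahnak2 (0.89), the interferon-induced membrane protein gene Ifitm2 (0.87) and Gpnmb (0.84). Like Sult2b1, Ifitm2 stood at 432 CPM in uncoated and 128 CPM in coated bead cells at day 7, as group means. Adgrl1 was nearest to Id3 (0.89), an inhibitor of E proteins that is high in naive and memory T cells, and to Pacsin1 (0.82) and Med16 (0.82). Among the 5 genes, Klhl30 and Myl10 were the most alike (r = 0.86), followed by Klhl30 and Sult2b1 (0.82). Adgrl1 correlated negatively with the other 4, at -0.66 with Klhl30 and -0.19 with Adgrg5. Over 9 group means instead of samples, none of the 3 nearest genes was shared for Klhl30 or Adgrl1 and 1 for Adgrg5.

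**Figure D3:**
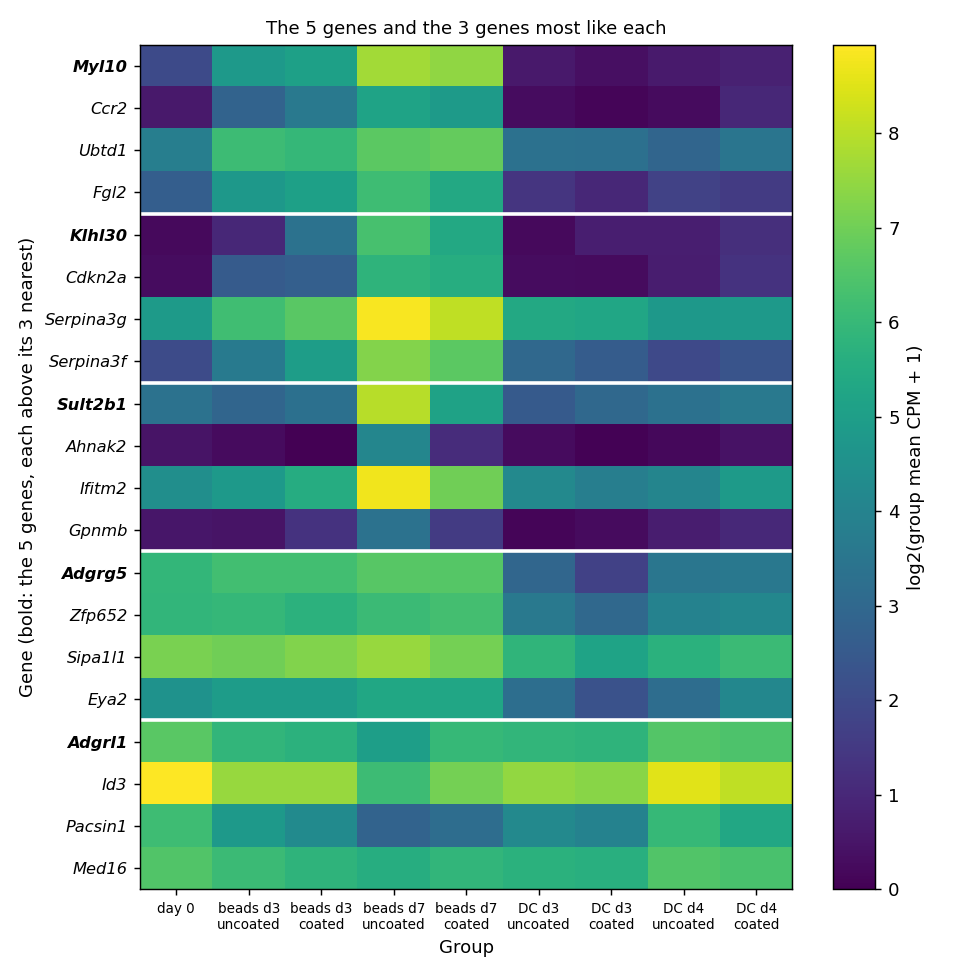
Group means as log2(CPM + 1), by color, for the 5 genes (bold) and the 3 genes most like each by Pearson r over 45 samples; columns are the 9 groups (d3, d4, d7: day). The Myl10, Klhl30 and Sult2b1 blocks are brightest in bead cells at day 7, the Adgrg5 block is darkest in DC groups, and the Adgrl1 block is dark in uncoated bead cells at day 7.

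Genes of the oxysterol and LXR pathway, on which Sult2b1 acts, were examined next: 16 of 20 listed genes were in the table and 9 or 10 passed the count filter in a bead comparison. At day 7 the coating went with a lower Abcg1, the exporter of cholesterol and an LXR target, the only called gene of 9, or 11.1%, where 1.78% of all tested genes were called (-2.58 ± 0.47 on the log2 scale, adjusted p = 0.028, edgeR). Its level was 4.66 ± 3.08 CPM coated and 27.7 ± 12.4 CPM uncoated (SD, n = 4 and 5), with no overlap. Leaving out uncoated M3, M4 or M5 or coated M1, M2 or M5 ended that call, at -2.67 to -2.33, as did leaving out M3 and M4 together (-2.27). Of the 9 genes, 8 had a negative difference, with a median of -0.55 against -0.0053 for all tested genes. From day 3 to day 7, 4 of 10 rose without the coating and none fell, 40% against 22.7% of all tested genes called in either direction: Pltp (2.55 ± 0.52, adjusted p = 0.00628), Mylip (1.97 ± 0.46), Abcg1 (1.86 ± 0.46) and Arl4c (1.46 ± 0.26, adjusted p = 0.00321, edgeR). With the coating 3 of 9 fell and none rose, 33.3% against 6.38% of all tested genes: Abcg1 (-1.86 ± 0.44), Scd2 (-1.51 ± 0.36) and Srebf1 (-0.58 ± 0.12, adjusted p = 0.00975, edgeR). The coating difference changed between days for 5 of 10, or 50% against 3.97% of all tested genes, each toward lower values at day 7, with -3.70 ± 0.69 for Abcg1 (adjusted p = 0.0115) and -1.05 ± 0.20 for Srebf1 (adjusted p = 0.012, edgeR), and also for Pltp (-2.84), Scd2 (-2.21) and Arl4c (-1.46). The Abcg1 fall with time was no longer called without day 3 M4 or day 7 M1, M2 or M5 (-1.92 to -1.57), that of Srebf1 without day 7 M2 or M5 (-0.53 and -0.54), and the changes of both coating differences without uncoated M1 of day 3 (-3.41 and -1.05). Mylip, Scd2 and, in the last 2 comparisons, Pltp and Arl4c were named after their values were seen. Without uncoated M3 and M4 of day 7, Pltp (2.29), Arl4c (1.31) and both changes of coating difference (Abcg1 -3.36, Srebf1 -1.19) were still called. Abcg1 was far higher on day 0, at 156 ± 53.8 CPM (SD, n = 9), when Sult2b1 stood at 9.34 ± 4.61 CPM (n = 9). Day 0 samples also held monocyte and macrophage markers at 136 to 603 CPM in sum, against at most 38.7 CPM in any cultured sample. The part of other cells in the day 0 level of Abcg1 was not tested. It was compared in DC cultures as well. In DC cultures of day 4 Abcg1 had 14.8 ± 9.82 CPM with the coating and 39.9 ± 9.31 CPM without it, with groups that overlapped (-1.51 ± 0.34 on the log2 scale, adjusted p = 0.0118, edgeR). Of 9 listed genes tested there 3 fell and none rose, 33.3% against 18.4% of all tested genes called. Sult2b1 was not called there (0.31 ± 0.24 on the log2 scale). How the 2 genes relate was not tested.

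**Figure D4:**
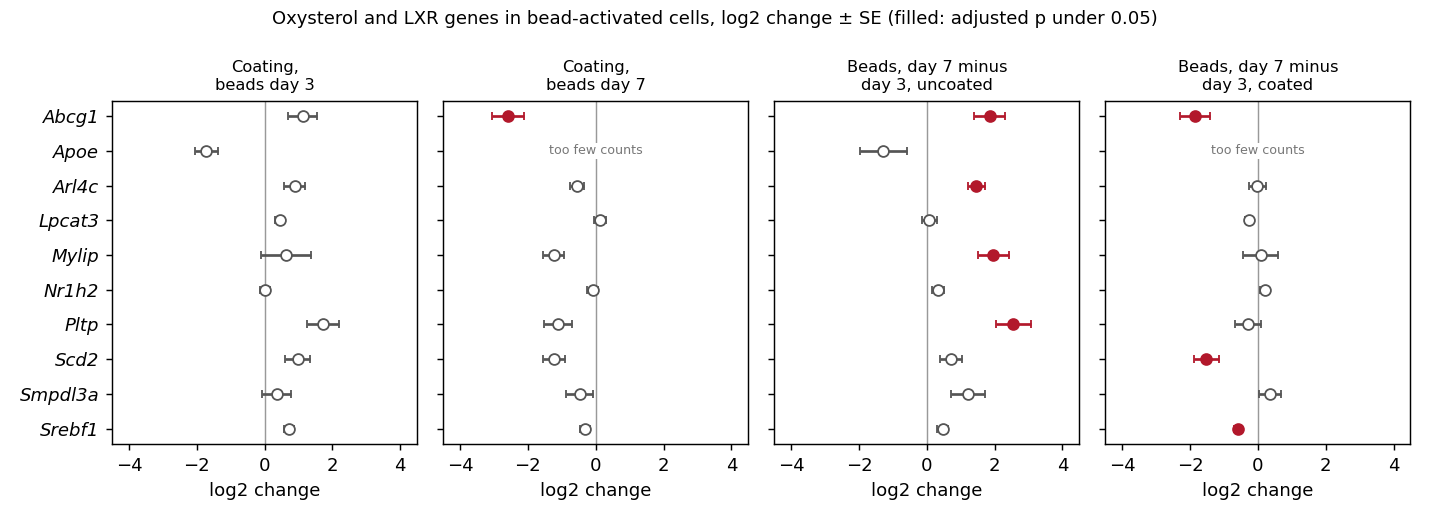
Fitted log2 change with its standard error for listed genes of the oxysterol and LXR pathway in 4 comparisons of bead-activated cells; filled points have an adjusted p under 0.05 in edgeR's quasi-likelihood test. Abcg1 is the called gene for coating at day 7, and 4 genes rose with time without the coating.

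Relatives of the other genes were counted in the same way. Of 28 other adhesion receptor genes 12 were in the table and 3 passed the filter. In each coating 2 of the 3 were called for time, 66.7%, where 22.7% of all tested genes were called without the coating and 6.38% with it. The remaining gene, Celsr1, stood at 24.2 ± 7.86 CPM at day 3 and 22.6 ± 6.28 CPM at day 7 uncoated (SD, n = 3 and 5). With the coating it stood at 39.2 ± 4.01 and 39.4 ± 6.03 CPM (n = 5 and 4). Adgrg3 and Adgre5, the CD97 receptor of Cd55, rose from day 3 to day 7 without the coating (1.92 ± 0.34 and 2.02 ± 0.42 on the log2 scale, adjusted p = 0.00331 and 0.0117, edgeR) and with it (1.18 ± 0.27 and 0.96 ± 0.22, adjusted p = 0.0168 and 0.0269). Adgrg3 also separated activators at day 3, with 9.57 ± 2.91 CPM in uncoated bead samples and 0.118 ± 0.137 CPM in uncoated DC samples (SD, n = 3 and 4; 5.81 ± 0.67, adjusted p = 1.01e-05, edgeR). There 13.8% of tested genes were higher with beads. Adgre5 was lower in the bead samples (-1.05 ± 0.13, adjusted p = 2.31e-05, edgeR). Of 2 tested ligand genes of such receptors, 1 was called for time without the coating, 50% against 22.7% of all tested genes, and none with it. Cd55 rose uncoated from 3.52 ± 2.08 to 13.1 ± 3.79 CPM (n = 3 and 5; adjusted p = 0.0152, edgeR). Tgm2 was not called, at 43.4 ± 20.7 and 38.9 ± 39.1 CPM in the same groups. No sulfotransferase or sulfate donor gene of the 4 or 5 tested was called for coating or time in bead cells.

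Of 31 Kelch-like and cullin 3 genes in the table, 22 were tested for time in bead culture. Without the coating 3 rose and 1 fell, and with it 1 rose, shares of 18.2% and 4.55%, below the 22.7% and 6.38% of all tested genes called. Enc1, itself a Kelch protein, rose in both, from 6.898 ± 0.416 to 28.1 ± 3.94 CPM uncoated (SD, n = 3 and 5) and from 7.77 ± 1.09 to 25.2 ± 7.28 CPM coated (n = 5 and 4; adjusted p = 0.000667 and 0.000981, edgeR). Cul3, the cullin that such adaptors bind, fell without the coating (-0.81 ± 0.19 on the log2 scale, adjusted p = 0.0106, edgeR). Of 13 genes of myosin light chains, of nonmuscle myosin heavy chains and of the kinases and phosphatase that act on light chains in the table, 9 were tested. In each coating 2 of the 9 were called, 22.2%, where 22.7% of all tested genes were called without the coating and 6.38% with it. Myl6 and Myl12b rose with time without the coating (0.77 ± 0.19 and 1.26 ± 0.35, adjusted p = 0.0139 and 0.0338, edgeR), and Myl12a and Myl12b with it (0.38 ± 0.09 and 0.71 ± 0.15, adjusted p = 0.0273 and 0.00981). Without uncoated M3 and M4 of day 7, the uncoated calls of Adgrg3, Adgre5, Cd55, Enc1, Cul3, Myl6 and Myl12b were kept, with values of 1.67, 1.5002, 1.73, 1.91, -0.65, 0.60 and 0.77 on the log2 scale.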

How the data were processed

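RNA of CD8+ T cells was sequenced by bulk MARS-seq. The deposited table holds whole-number read counts for 14626 genes in 52 libraries, with no normalization, and per the submitters' processing notes bcl2fastq, cutadapt, STAR 2.4.2a, HTSeq and DESeq2 were used with the mm10 build. Whether reads with the same molecular identifier were collapsed is not given in the sources used here, and counts may then hold copies of 1 molecule. The same deposited table holds the authors' log2 fold changes and the authors' adjusted p-values, printed only where named as such, and 104 further per-sample columns were not used. Identical counts were not found in 142 library pairs.

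Counts of the 16 day 3 DC libraries were added up within each M number and coating, which left 45 samples in 9 groups. Only the groups compared entered each fit in edgeR 4.0.16 (R 4.3.3): filterByExpr with a minimum count of 10 and a minimum total of 15, TMM factors, then the quasi-likelihood test with robust dispersions, two-sided, and Benjamini-Hochberg adjustment across the whole tested table. A gene was called at an adjusted p under 0.05. Printed levels use TMM factors over all samples. Intervals are the fitted value with its standard error at the 95% level by a normal approximation. They are narrower than the quasi-likelihood test would give for groups this small. The tests recovered, on simulated data, 94.9% of 4-fold and 58.9% of 2-fold changes among 8696 genes for the coating at day 7 of bead culture. Of the calls made there, 6.83% were false. For time in uncoated bead cells 81.8% and 41.4% were recovered, and 5.43% of calls were false.

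The 5 genes and the gene lists were chosen with earlier results of these data known. Beside the 5 genes, the rule named the 3 genes most like each and up to 2 called genes with the smallest adjusted p per list and comparison. Alternatives were other size factors, no filter, DESeq2 1.42.0, all groups in one fit, the M number as a block, each sample left out, and the DC libraries with 120 alone. M numbers were taken as pairs, without a comparison to differently numbered samples, where every pair's deviations from the group means correlated above 0.1. That held for time in uncoated bead cells (3 pairs, r = 0.121 to 0.282) and coating in DC cultures at day 3 (4 pairs, 0.111 to 0.238) and day 4 (5 pairs, 0.155 to 0.393). It did not for coating in bead cells at day 3 (0.00894 to 0.222) or day 7 (-0.169 to 0.493), nor for time in coated bead cells (-0.601 to 0.0444). Promoter windows and positions came from RefSeq and GENCODE on GRCm38.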

Additional observations from a re-analysis of the deposited data

Results flagged for a closer look

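Of 40 groups of 4 to 10 samples examined for the 5 genes, 4 held a sample far from the others, where chance gives about 1 group in 20. Klhl30 was at 1.16 CPM in M10 of day 0, from 5 counts, and at 2.47 CPM in M8 of the uncoated DC cultures of day 4, from 3 counts. Adgrg5 was at 67.9 CPM in the coated bead sample M3 of day 7, where the nearest sample had 101 CPM. Sult2b1 was at 17.0 CPM in the coated bead sample M5 of day 3, where the nearest had 8.501 CPM.

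The coating difference of bead cells itself differed between day 7 and day 3 for 3 genes, by a test of that difference with edgeR. The log2 values were -3.71 for Klhl30, 1.16 for Adgrl1 and -3.40 for Sult2b1 (adjusted p = 0.0467, 0.0338 and 0.0305). As fitted, Klhl30 and Sult2b1 were higher with the coating at day 3 and lower at day 7, and Adgrl1 the reverse. No day 3 difference was called, and at day 7 those of Sult2b1 and Adgrl1 were called and that of Klhl30 was not.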

How the results depend on the processing

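Direction held for Klhl30, Myl10, Sult2b1 and Adgrl1 in every comparison and alternative run. It turned for Adgrg5 where its difference was near 0 and not called: over the fits that left out a sample each, its log2 difference ran from -0.17 to 0.026 for coating in bead cells at day 3, -0.16 to 0.043 at day 7, -0.13 to 0.10 for the change between days and -0.089 to 0.15 for coating in DC cultures at day 4. Counts of called genes moved more. For coating in bead cells at day 3 the 9 genes became 17 without the filter, 52 with DESeq2, 2 with all groups in one fit, 140 with the M number as a block, 3 without M2 and 26 with shared M numbers only. At day 7 the 155 became 579, 917 and 268 with DESeq2, all groups and the block, 37 without uncoated M3 and M4, and 63 with shared M numbers. For time the 2051 genes without coating became 1342 with the block, 1213 without M3 and M4, 1016 without day 3 M2 and 796 with shared M numbers, and the 561 with coating became 140 and 359 with the block and shared M numbers. For the change of the coating difference, 376 became 652, 605 and 83 with DESeq2, all groups and the block, 68 without M3 and M4 and 80 without day 3 M2. In DC cultures, coating at day 3 gave 40, and 109, 7, 121 and 8 with DESeq2, all groups, the block and 120 libraries, and day 4 gave 1683, and 2538 with the block. Beads against DCs at day 3 gave 2238 uncoated, and 1418 with shared M numbers, and 3637 coated, and 2302 with 120 libraries. Leaving out a sample each gave 0 to 33, 22 to 786, 891 to 2375, 290 to 584, 36 to 878, 1 to 97, 833 to 1993, 1672 to 2306 and 3203 to 3652 called genes, in that order. The cause was not tested. The block, where numbers do not pair the samples, called Klhl30 for coating at day 7 (-0.98, adjusted p = 0.0102, edgeR) and ended the calls of Klhl30 for time with coating and of Adgrl1 for the change between days (1.08, adjusted p = 0.092). Leaving out M2 of day 3, leaving out M3 and M4 of day 7 and restricting to shared M numbers were chosen after seeing the data. Myl10 and Klhl30 held too few counts to test in DC cultures, at levels of at most 2.58 CPM.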
